A study of Mus musculus with 12 samples.

Results

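The 8 genes described here are expressed in the endocardium, the endothelium that lines the heart chambers and valves, and were measured in whole embryonic mouse hearts: the transcription factors Nfatc1 and Gata5, the secreted proteins Wnt9b and Cytl1, the matrix protein Hapln1, and Plvap, Cgnl1 and Tmem100, which act at membranes and cell junctions. They were taken by symbol as known endocardial genes, with earlier results of these data known. All 8 of 8 were found among the 45664 rows of the table of raw counts, and all 8 were among the 20691 genes with enough counts to be tested. Bulk RNA came from 12 hearts, 1 library each: 3 hearts with endothelial disruption of Ino80 by way of Tie2 (KO) and 3 wild-type hearts (WT) at embryonic stage E13.5, and 3 KO and 3 WT hearts at E14.5. Ino80 is the ATPase of the INO80 nucleosome-remodelling complex. Tie2 drivers are known to act in endothelium, endocardium and part of the blood lineage, so cardiomyocytes and other cells outside these lineages keep the gene. The labels give neither the strain nor which part of Ino80 is deleted. All E13.5 hearts came from litter 1, and the E14.5 hearts from litter 2 (KO replicates 2 and 4, WT replicates 8 and 7) and litter 3 (KO replicate 1, WT replicate 7.2), so stage and litter cannot be told apart.

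The endocardium arises with the heart tube and stays a continuous sheet against the myocardium. In the atrioventricular canal and outflow tract, endocardial cells give rise to the mesenchyme of the valve cushions, a step that needs a hyaluronan-rich matrix, calcium-dependent NFAT signalling and local BMP, Notch and Wnt cues. In the ventricles it borders the trabeculae and also supplies part of the coronary vessels, whose endothelium loses endocardial genes and gains capillary and arterial genes.

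Of the 8 genes, 2 passed the test when KO was compared with WT over both stages: Wnt9b was higher and Cytl1 was lower in KO hearts. The 250 bases before the start of each are shown because these genes moved in opposite directions, as genome sequence of RefSeq (GRCm38.p6), 5′ to 3′ along the gene. Capitals mark TGGAAA, the core of an NFAT site.
Cytl1 (chr5:37735269-37735518, + strand): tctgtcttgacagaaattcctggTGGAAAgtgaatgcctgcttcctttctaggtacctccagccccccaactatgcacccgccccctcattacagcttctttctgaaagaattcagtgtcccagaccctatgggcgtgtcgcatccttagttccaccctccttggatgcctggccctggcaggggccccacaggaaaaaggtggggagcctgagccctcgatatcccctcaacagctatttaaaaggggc
Wnt9b (chr11:103749822-103750071, - strand): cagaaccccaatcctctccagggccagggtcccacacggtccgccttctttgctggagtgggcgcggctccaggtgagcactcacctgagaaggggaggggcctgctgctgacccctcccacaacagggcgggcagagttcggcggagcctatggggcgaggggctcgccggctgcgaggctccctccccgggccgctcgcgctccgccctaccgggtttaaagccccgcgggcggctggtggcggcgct
The Cytl1 window held 54.8% G or C and 4 CpG dinucleotides, against 72% and 22 CpG in the Wnt9b window, with a median of 52.4% over all 32851 windows of this length. In all, 5 motifs were searched on both strands of the windows of the 5 members that matched the promoter table (Cytl1, Wnt9b, Hapln1, Cgnl1 and Gata5). The NFAT core was searched as TGGAAA and the ETS core as the letters CCGGAA, which 12.0% of all windows hold. For TCF/LEF factors the letters were CTTTGA. For the start-site box found near many promoters they were TATAAA, present in 12.4% of all windows. The GATA motif was searched by its name with an A or T before and an A or G after it, and 26.5% of all windows hold it. No hit overlapped another. The NFAT letters stood in the Cytl1 window 227 to 222 bases before the start and are found in 18.6% of all windows. The TCF/LEF letters stood in the Gata5 window and are found in 13.8% of all windows. None of these letters was in the Wnt9b, Hapln1 or Cgnl1 windows. All windows lie before the RefSeq start, which can differ from the gene positions given below. By those positions the Hapln1 window (chr13:89540386-89540635) lies inside the gene, and the Gata5 window (chr2:180334680-180334929) lies partly inside it.

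Libraries held 46556032 to 182545647 counts. Levels are given as CPM, library-scaled counts as edgeR gives them, after TMM scaling, which evens out differences in library composition. Ino80 itself was at 29.6, 29.6 and 29.6 CPM in E13.5 KO hearts, against 36.6, 33.7 and 30.7 CPM in WT, and at 27.0, 29.5 and 31.9 CPM in E14.5 KO hearts, against 33.8, 31.4 and 30.8 CPM in WT. Its log2 fold change over both stages was -0.15 ± 0.06 (SE, adjusted p = 0.22, edgeR's quasi-likelihood test with Benjamini-Hochberg adjustment), so in whole-heart RNA its loss was not called. Defining markers of endocardium (Npr3, 108 to 185 CPM; Emcn, 58.9 to 97.0 CPM) and of endothelium (Pecam1, 90.6 to 159 CPM; Cdh5, 224 to 301 CPM) were present in every heart. KO replicate 5 of E13.5 and KO replicate 2 of E14.5 stood apart with the lowest mean log2 CPM of 10 macrophage genes, -0.48 and 0.39, against 2.79 to 2.86 in E13.5 WT and 2.62 to 2.64 in E14.5 WT hearts. The litter 3 hearts of E14.5 also stood apart. WT replicate 7.2 had the lowest level of Nfatc1, Gata5, Wnt9b, Hapln1, Plvap and Cgnl1 of all 12 hearts and the highest of Cytl1, and KO replicate 1 had the highest summed level of 8 erythroid genes (41761 CPM, against 3565 to 18363 CPM in the other hearts). In bulk RNA, fewer cells of a type and less RNA per cell cannot be told apart, and this holds for every result here.

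**Figure D1:**
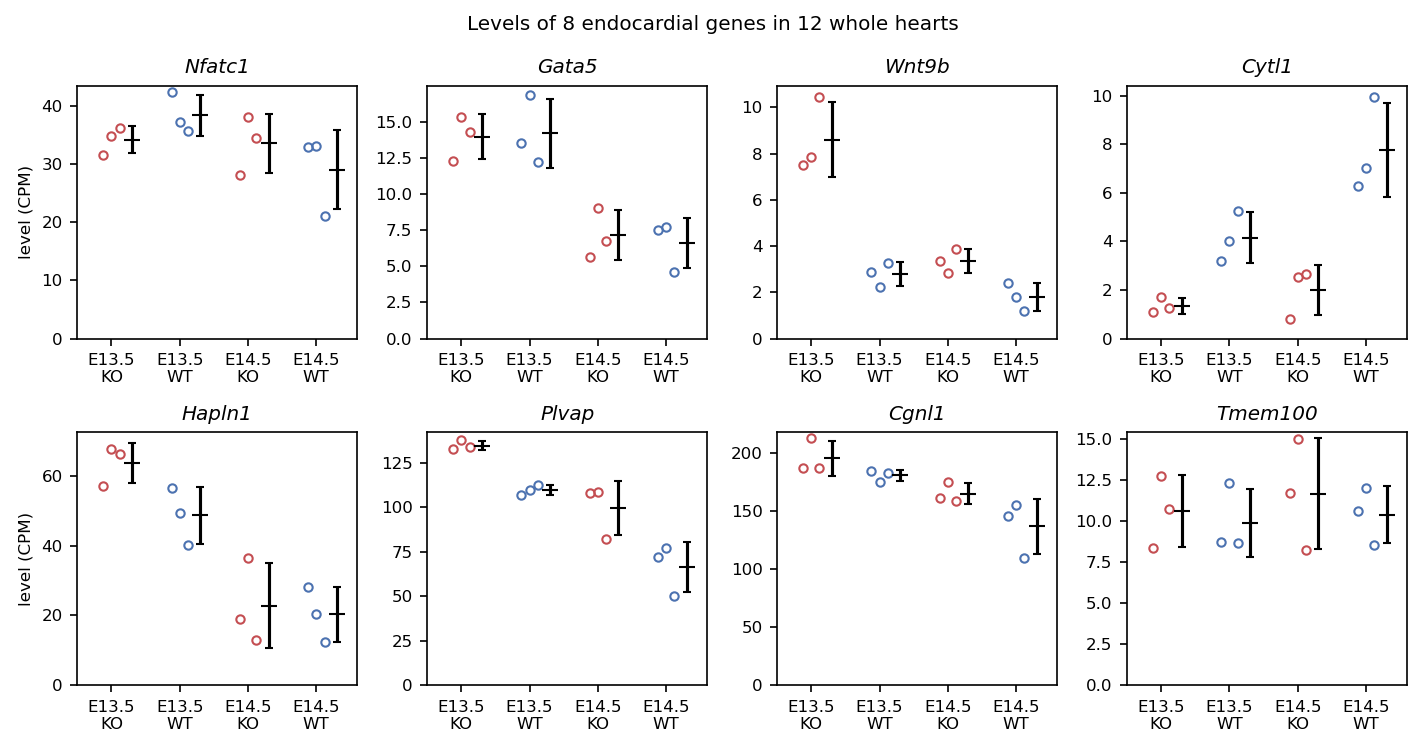
CPM of the 8 endocardial genes in each of 12 hearts, with E13.5 KO, E13.5 WT, E14.5 KO and E14.5 WT from left to right in each panel; points are hearts and bars are group means with SD. Cytl1 points of KO hearts lie below, and Wnt9b points above, those of WT hearts at both stages.

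Abundance differed widely among the 8 genes. Per kilobase of exon, Plvap had the highest mean over the 12 hearts (51.6 CPM per kb), followed by Cgnl1 (21.6), Hapln1 (6.60), Tmem100 (6.01), Nfatc1 (4.53), Cytl1 (3.62), Gata5 (3.20) and Wnt9b (0.915 CPM per kb). Plvap was above Cgnl1, Cgnl1 above Hapln1 and Gata5 above Wnt9b in 12 of 12 hearts. Among neighbours in this order, the range over hearts was free of overlap for Cgnl1 against Hapln1 only. Hapln1 was above Tmem100 in 6 hearts, Nfatc1 above Cytl1 in 8 and Cytl1 above Gata5 in 5, so the middle of the order is not fixed. Wnt9b had the lowest level per kb in 9 of 12 hearts, while in the 3 E13.5 KO hearts Cytl1 was lower (1.04, 1.63 and 1.18 CPM per kb, against 1.66, 1.74 and 2.32 for Wnt9b). Wnt9b counts ran from 72 to 1904 per library, while those of Cytl1 ran from 52 to 613.

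Wnt9b encodes a secreted Wnt ligand that is made by endocardium over the forming valves in the mouse. It lies on chromosome 11 from 103727364 to 103749821 on the minus strand (GRCm38, GENCODE M21, as for all positions of genes here). It stood at 7.51, 7.86 and 10.5 CPM in E13.5 KO hearts, against 2.87, 2.24 and 3.25 CPM in E13.5 WT hearts. At E14.5 it stood at 3.36, 2.82 and 3.89 CPM in KO hearts, against 2.41, 1.79 and 1.17 CPM in WT hearts. Every KO heart was above every WT heart of its stage. At E13.5 this was a log2 fold change of 1.63 ± 0.24 (SE, adjusted p = 0.0269), or 3.1-fold, and at E14.5 it was 0.91 ± 0.25 (adjusted p = 0.187). Over both stages, as the mean of the stage changes, Wnt9b rose by 1.27 ± 0.17 (adjusted p = 0.00357), or 2.41-fold. Within litters the log2 difference was 1.62 in litter 1 (3 KO and 3 WT hearts), 0.56 in litter 2 (2 and 2) and 1.72 in litter 3 (1 and 1). DESeq2 also called E14.5 (adjusted p = 0.0228). The call over both stages was kept whichever of the 12 hearts was left out, with adjusted p from 0.00179 to 0.0131. At E13.5 alone the call was lost without KO replicate 3 (adjusted p = 0.065), KO replicate 5 (0.100), KO replicate 7 (0.115), WT replicate 1 (0.127) or WT replicate 4 (0.128). With the level of Y-linked genes as a covariate, the E13.5 call was barely kept (1.67, adjusted p = 0.0495).

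Cytl1, cytokine-like 1, encodes a small secreted protein and lies on chromosome 5 from 37735519 to 37739820 on the plus strand. It stood at 1.10, 1.72 and 1.24 CPM in E13.5 KO hearts, against 3.21, 4.0 and 5.27 CPM in E13.5 WT hearts. At E14.5 it stood at 0.808, 2.55 and 2.67 CPM in KO hearts, against 6.28, 7.04 and 9.95 CPM in WT hearts. All KO hearts of both stages were below all WT hearts of both stages. Over both stages Cytl1 fell by 1.79 ± 0.27 on the log2 scale (SE, adjusted p = 0.00873), to 0.29 of the WT level, and the call was kept whichever heart was left out (adjusted p from 0.00186 to 0.0312). In the single stages the change was -1.63 ± 0.38 at E13.5 (adjusted p = 0.178) and -1.94 ± 0.38 at E14.5 (adjusted p = 0.0699), both short of the threshold. With litter as a block, E14.5 was called (-1.95, adjusted p = 0.0409). With 1 heart left out, E14.5 was called in 0 of 12 fits (adjusted p from 0.0585 to 0.245). At E13.5 Cytl1 was called when E14.5 KO replicate 2, the heart with the least Cytl1, was left out of the fit (-1.63, adjusted p = 0.0173), and in none of the other 11 such fits. It was also called at E13.5 with only the E13.5 libraries in the fit (adjusted p = 0.0385) and without KO replicate 5 of E13.5 and KO replicate 2 of E14.5 (-1.82, adjusted p = 0.0229). DESeq2 called both stages (adjusted p = 0.001 at E13.5 and 1.32e-05 at E14.5). Within litters the log2 difference was -1.60, -2.19 and -1.89 in litters 1, 2 and 3.

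Plvap encodes the protein of the diaphragms that span endothelial fenestrae and caveolae, and lies on chromosome 8 from 71497765 to 71511752 on the minus strand. It was at 133, 138 and 134 CPM in E13.5 KO hearts, against 107, 110 and 113 CPM in WT hearts. At E14.5 it was at 108, 108 and 82.3 CPM in KO hearts, against 72.2, 76.8 and 50.1 CPM in WT hearts. Every KO heart was above every WT heart of its stage, though the KO value of litter 3 (82.3 CPM) came close to the WT values of litter 2. The log2 fold change was 0.44 ± 0.10 over both stages (SE, adjusted p = 0.0512), 0.30 ± 0.14 at E13.5 (adjusted p = 0.49) and 0.59 ± 0.14 at E14.5 (adjusted p = 0.143), so none passed the threshold. With litter as a block, Plvap was called over both stages (0.45, adjusted p = 0.000419) and at E14.5 (0.60, adjusted p = 0.00158). Without litter 3 it was called as well, at 0.42 (adjusted p = 0.000672) over both stages, 0.30 (adjusted p = 0.0288) at E13.5 and 0.54 (adjusted p = 0.00928) at E14.5. DESeq2 (adjusted p = 0.00101) and a fit without robust shrinkage of the spread (adjusted p = 0.042) called it over both stages too, DESeq2 called it at E14.5 (adjusted p = 0.00631), and the E13.5 libraries fitted alone called it at E13.5 (adjusted p = 0.0455). Plvap was not called over both stages with RLE scaling, with no low-count filter, or with the Y-linked or the pan-endothelial level as a covariate. Among settings other than leaving out 1 heart, adjusted p over both stages reached 0.252. With 1 heart left out, it was called over both stages in 3 of 12 fits (adjusted p from 0.0166 to 0.137). Such fits called it in 1 of 12 cases at E14.5 and in 0 of 12 at E13.5. Within litters the log2 difference was 0.30, 0.54 and 0.72 in litters 1, 2 and 3.

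Cgnl1 encodes paracingulin, a protein of tight and adherens junctions, and lies on chromosome 9 from 71626509 to 71771602 on the minus strand. It was at 186, 212 and 187 CPM in E13.5 KO hearts, against 184, 175 and 183 CPM in WT hearts, and at 161, 175 and 159 CPM in E14.5 KO hearts, against 145, 155 and 110 CPM in WT hearts. KO and WT values did not overlap at either stage, but lay close together at E13.5. The log2 fold change over both stages was 0.19 ± 0.07 (SE, adjusted p = 0.246), which did not pass the test.

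Hapln1 encodes the link protein that ties proteoglycans such as versican to hyaluronan, and lies on chromosome 13 from 89539796 to 89611652 on the plus strand. It was at 57.2, 67.9 and 66.4 CPM in E13.5 KO hearts, against 56.7, 49.5 and 40.4 CPM in WT hearts. At E14.5 it was at 18.9, 36.6 and 13.0 CPM in KO hearts, against 28.2, 20.3 and 12.4 CPM in WT hearts. The groups were just clear of each other at E13.5 and overlapped at E14.5, where KO hearts alone ran from 13.0 to 36.6 CPM. Hapln1 was not called, at 0.28 ± 0.27 over both stages (SE, adjusted p = 0.673).

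Tmem100 encodes a membrane protein that ALK1 and BMP9 signalling is known to induce in mouse endothelium, and lies on chromosome 11 from 90030348 to 90036508 on the plus strand. It was at 8.36, 12.7 and 10.7 CPM in E13.5 KO hearts, against 8.72, 12.3 and 8.63 CPM in WT hearts, and at 11.7, 15 and 8.24 CPM in E14.5 KO hearts, against 10.6, 12.0 and 8.52 CPM in WT hearts. The groups overlapped at both stages, and the log2 fold change over both was 0.13 ± 0.16 (SE, adjusted p = 0.745).

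Nfatc1, the calcineurin-dependent factor that marks endocardium and is needed for valve formation in the mouse, lies on chromosome 18 from 80606205 to 80713071 on the minus strand. It was at 31.6, 34.8 and 36.2 CPM in E13.5 KO hearts, against 42.4, 37.2 and 35.7 CPM in WT hearts, and at 28.1, 38.1 and 34.4 CPM in E14.5 KO hearts, against 32.9, 33.1 and 21.1 CPM in WT hearts. Values overlapped at both stages, and the log2 fold change over both was 0.02 ± 0.11 (SE, adjusted p = 0.95). It was -0.17 ± 0.16 at E13.5 (adjusted p = 0.739) and 0.21 ± 0.16 at E14.5 (adjusted p = 0.772).

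Gata5, a zinc-finger factor whose loss in the mouse is known to disturb the aortic valve, lies on chromosome 2 from 180325133 to 180334699 on the minus strand. It was at 12.3, 15.4 and 14.3 CPM in E13.5 KO hearts, against 13.52, 16.9 and 12.2 CPM in WT hearts, and at 5.62, 9.02 and 6.77 CPM in E14.5 KO hearts, against 7.47, 7.73 and 4.61 CPM in WT hearts. Values overlapped at both stages, and the log2 fold change over both was 0.05 ± 0.15 (SE, adjusted p = 0.914). The antisense gene Gata5os shares 258 bases, 7.87% of the Gata5 exon length, and the strand setting of the counting was not given in the sources used here, so reads from these bases could belong to either. The other members share no exonic base with another gene.

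**Figure D2:**
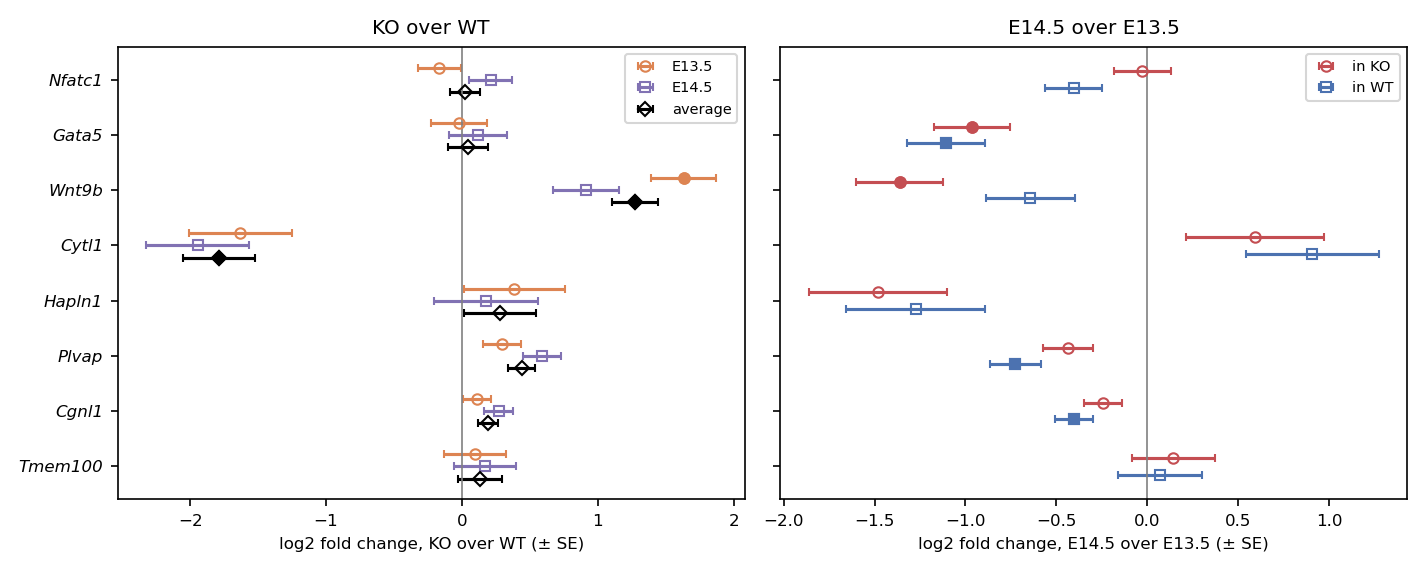
Log2 fold changes of the 8 genes with their SE: KO against WT at E13.5, at E14.5 and over both stages (left), and E14.5 against E13.5 in KO and in WT hearts (right); filled points passed an adjusted p of 0.05. Wnt9b at 1.27 and Cytl1 at -1.79 are the filled points over both stages, and Gata5 is filled for the stage change in KO and in WT.

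Counted together, 2 of 8 members were called over both stages, while 1.42% of all tested genes were, 0.831% higher and 0.585% lower. The members' 2 calls were 1 in each direction. At E13.5, 1 of 8 was called (Wnt9b, higher; background 0.106% in either direction and 0.0193% higher). At E14.5 none of 8 was called (background 0.222%) by edgeR's quasi-likelihood test, 4 of 8 had an unadjusted p under 0.05 (background 9.6%), and DESeq2 called 3. KO and WT values did not overlap for 5 of 8 members at E13.5 (background 19.6%) and for 4 of 8 at E14.5 (background 12.7%). These 4, Cytl1, Wnt9b, Plvap and Cgnl1, were apart in the same direction at both stages, which 3.25% of all genes were. The median log2 fold change of the members over both stages was 0.16, against 0.00 for all tested genes. Of the members, 7 of 8 lay above 0, among them Nfatc1 at 0.02 and Gata5 at 0.05, while 49.3% of all tested genes did. At E14.5 the members' median was 0.19 (7 of 8 above 0). The pan-endothelial list had 0.21 (15 of 20) and a list of further endocardial genes 0.15 (15 of 20) at that stage, so this lean was not particular to the members. In the single stages, Cgnl1, Hapln1, Tmem100 and Gata5 were at -0.02 (Gata5, E13.5) to 0.38 (Hapln1, E13.5), none of them called.

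Whether the KO difference itself changed between the stages was tested as an interaction. No member and no gene of the table was called by edgeR (background 0%), 0 members and 746 genes (3.61%) had an unadjusted p under 0.05, and DESeq2 called 0 members and 2 genes. For Wnt9b the later KO difference less the earlier was -0.72 ± 0.34 on the log2 scale (SE, unadjusted p = 0.0537, adjusted p = 0.997). No change with stage can therefore be stated for Wnt9b or any other member.

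The RNA level of pan-endothelial genes, which is not a count of endothelial cells, was measured beside the members. Summed over 20 pan-endothelial genes, CPM ran from 1617 to 1658 in E13.5 KO hearts, against 1694 to 1804 in WT, and from 1753 to 2037 in E14.5 KO hearts, against 1585 to 1829 in WT. The KO sums were thus slightly lower at E13.5 and overlapped with WT at E14.5. Set against the mean log2 CPM of this list in the same heart, Wnt9b was 1.77 higher in KO than in WT hearts at E13.5 and 0.86 higher at E14.5, with no overlap of hearts. Cytl1 differed by -1.45 at E13.5 and by -2.17 at E14.5 on this scale, again with no overlap. Plvap was 0.45 higher in KO hearts at E13.5 without overlap, and 0.52 higher at E14.5 with overlap. Differences of the other 5 members on this scale ran from -0.01 (Nfatc1, E13.5) to 0.55 (Hapln1, E13.5). Of these, Hapln1 (0.55) and Cgnl1 (0.26) were also free of overlap at E13.5, and both overlapped at E14.5. With the list level as a covariate, Wnt9b and Cytl1 were still called over both stages, while Wnt9b at E13.5 was not (1.87, adjusted p = 0.081). At E13.5 the list level itself was 5.84 to 5.87 in KO hearts and 5.98 to 6.03 in WT hearts. The covariate can therefore hardly be told apart from genotype at that stage.

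**Figure D3:**
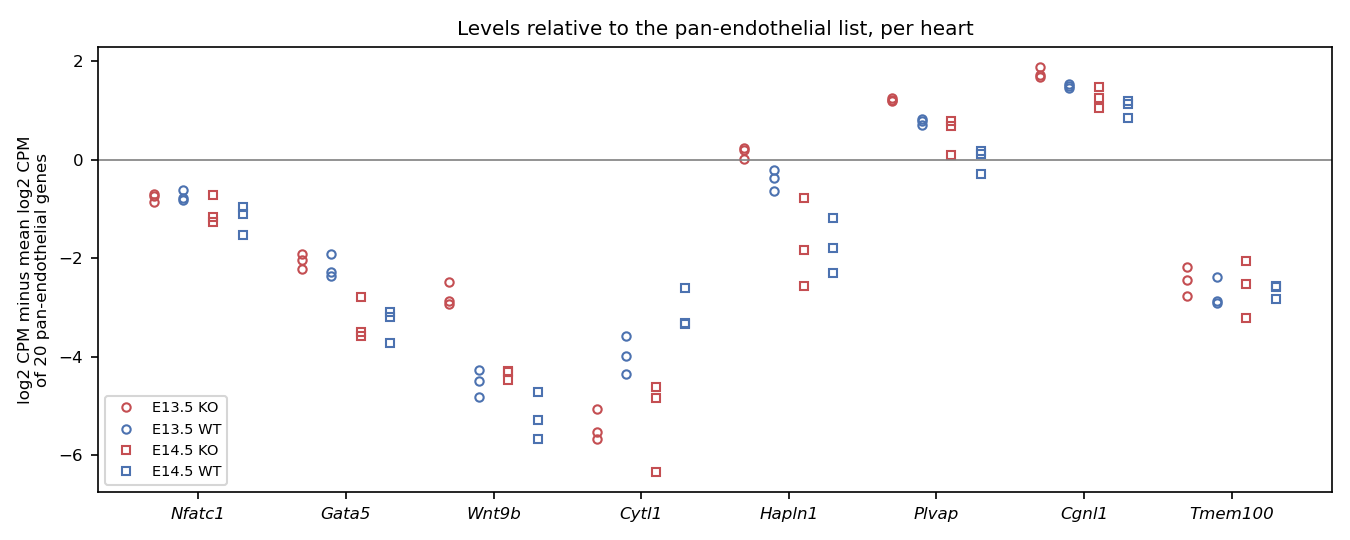
Log2 CPM of each gene minus the mean log2 CPM of 20 pan-endothelial genes in the same heart; each point is a heart, circles are E13.5, squares E14.5, red KO and blue WT. Red and blue points of Wnt9b and Cytl1 are separate at both stages, those of Nfatc1, Gata5 and Tmem100 overlap.

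Other endothelial genes moved in both directions. Of the 20 pan-endothelial genes, 1 was called higher and 2 lower over both stages (median 0.06). By stage, 5 of 20 lay above 0 at E13.5 (median -0.09) and 15 of 20 at E14.5 (median 0.21). The base of the relative levels above thus leaned in opposite directions at the 2 stages. Pecam1, an adhesion molecule of endothelial junctions, fell by 0.47 ± 0.05 (adjusted p = 0.000785), with means of 93.0 ± 2.09 CPM in E13.5 KO and 143 ± 8.45 CPM in E13.5 WT hearts (SD, n = 3 each). Cldn5, the endothelial claudin, fell by 0.85 ± 0.12 (adjusted p = 0.00602). Eng, a co-receptor of TGF-β and BMP ligands, rose by 0.30 ± 0.06 (adjusted p = 0.0193), a call kept in 8 of 12 sets with a heart left out. The VE-cadherin gene Cdh5 (-0.01 ± 0.06, adjusted p = 0.944) and Tek, the gene of Tie2 itself (0.04 ± 0.07, adjusted p = 0.854), lay near 0.

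Of 20 further endocardial genes, of which Emcn and Vwf are also on the pan-endothelial list, none was called over both stages (median 0.03, 11 above 0). The natriuretic peptide receptor Npr3 was at 0.18 ± 0.09 (adjusted p = 0.388) and the endocardial sialomucin Emcn at 0.30 ± 0.09 (adjusted p = 0.118). Nrg1, the ligand by which endocardium signals to myocardial ERBB receptors, was at 0.74 ± 0.19 (adjusted p = 0.0825), with 2.84 ± 0.0555 CPM in E13.5 KO and 1.77 ± 0.26 CPM in E13.5 WT hearts (SD, n = 3 each).

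Of 15 coronary and capillary endothelial genes, 3 were called lower and none higher over both stages, and 1 of 15 lay above 0 (median -0.18). Rgcc fell by 1.10 ± 0.14 (adjusted p = 0.00252), and the apelin receptor Aplnr, a marker of sinus venosus-derived coronary sprouts, fell by 1.04 ± 0.14 (adjusted p = 0.00639), with 17.7 ± 2.28 CPM in E13.5 KO and 39.7 ± 4.56 CPM in E13.5 WT hearts. Gpihbp1, which carries lipoprotein lipase across capillary endothelium, fell by 0.82 ± 0.18 (adjusted p = 0.0429), but kept its call in only 3 of 12 sets with a heart left out. Cytl1 fell like these genes, and Wnt9b rose. After subtraction of stage means, the correlation with the mean of this list over 12 hearts was 0.72 for Cytl1, -0.83 for Wnt9b and -0.80 for Plvap. It was -0.72 for Cgnl1, -0.68 for Hapln1, -0.49 for Tmem100, -0.34 for Gata5 and -0.21 for Nfatc1. With the mean of the further endocardial genes, r was 0.88 for Cgnl1, 0.80 for Nfatc1, 0.74 for Plvap and 0.66 for Gata5. It was 0.44 for Tmem100, 0.38 for Hapln1, 0.38 for Wnt9b and -0.42 for Cytl1, the only negative value. For Cytl1, r was also 0.62 with the macrophage and 0.54 with the erythroid genes. For Wnt9b these were -0.53 and -0.23. All these values contain the KO difference, so a link particular to coronary genes was not tested.

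Genes that work with the members were described in the same way. For Wnt9b, none of 21 other Wnt ligands, receptors and secretion factors (median 0.02) and none of 12 targets of canonical Wnt signalling (median 0.03) was called over both stages. For Nfatc1, none of 12 other NFAT and calcineurin genes was called (median -0.02), nor were any of 9 cardiac partners of GATA factors for Gata5 (median -0.06). Around Tmem100, 1 of 18 genes of ALK1 and BMP signalling was called higher (Eng, above) and 1 lower, the receptor gene Acvrl1, which encodes ALK1 (-0.39 ± 0.08, adjusted p = 0.0384, kept in 3 of 12 sets with a heart left out).

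Around Hapln1, 1 of 18 hyaluronan and proteoglycan matrix genes was called higher and 16 of 18 lay above 0 (median 0.14). The called gene was Cd44, the hyaluronan receptor, at 0.35 ± 0.06 over both stages (adjusted p = 0.0159) and 0.54 ± 0.09 at E14.5 (adjusted p = 0.0269). Around Plvap, 1 of 12 genes of caveolae and fenestrae was called, Cav1, the main caveolar coat protein of endothelium, which fell by 0.55 ± 0.11 (adjusted p = 0.0259, kept in 7 of 12 sets with a heart left out). Around Cgnl1, 3 of 18 tight and adherens junction genes were called lower: Pecam1, Cldn5 and Jam2, a junctional adhesion molecule that fell by 0.87 ± 0.13 (adjusted p = 0.00605). Without the KO hearts lowest in macrophage genes (replicate 5 of E13.5 and replicate 2 of E14.5), Eng, Acvrl1, Gpihbp1, Cd44 and Cav1 were no longer called (adjusted p from 0.05 to 0.212). Their log2 fold changes moved little, to 0.27, -0.39, -0.82, 0.36 and -0.53 in this order. Fewer hearts were in that fit, and the genes called in all fell from 293 to 63.

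Markers of other cell types were measured beside the members. None of 14 valve mesenchyme, 10 cardiomyocyte, 8 epicardial, 10 macrophage, 8 erythroid, 5 liver or 6 lymphatic genes was called over both stages. The summed level of the macrophage genes ran from 41.7 to 79.9 CPM in E13.5 KO hearts, against 111 to 122 CPM in WT hearts, and from 39.0 to 127 CPM in E14.5 KO hearts, against 93.5 to 107 CPM in WT hearts. Over both stages the median log2 fold change of these genes was -0.81, with 0 of 10 above 0, against 49.3% of all tested genes. By stage the median was -1.53 at E13.5 (0 of 10 above 0) and -0.12 at E14.5 (3 of 10 above 0). Valve mesenchyme sums ran from 840 to 1004 CPM in E13.5 KO hearts, against 783 to 856 CPM in WT hearts, and from 818 to 950 CPM in E14.5 KO hearts, against 753 to 828 CPM in WT hearts. Hapln1 followed this list over the 12 hearts (r = 0.85 after subtraction of stage means), and Tmem100 (0.74) and Gata5 (0.69) did so less closely. The liver genes Alb, Afp and Apoa1 were at 0 in 5, 2 and 1 hearts and at most at 1.62 CPM. The part of these contents in the KO differences was not tested, apart from the pan-endothelial covariate above, whose level differed by genotype at E13.5. Without the KO hearts lowest in macrophage genes, Wnt9b and Cytl1 were still called over both stages, and Wnt9b at E13.5 was not (1.69, adjusted p = 0.0561). The E13.5 KO hearts kept, replicates 3 and 7, had mean log2 CPM of the macrophage genes of 1.43 and 2.08. That was still below every E13.5 WT heart (2.79 to 2.86), so this fit did not remove the macrophage difference at E13.5. The E14.5 KO hearts kept were at 3.02 and 2.87, against 2.62 to 2.64 in WT.

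The later stage was compared with the earlier one in each genotype, with litter changing alongside. In KO hearts 2 of 8 members were called, both lower at E14.5 (background 3.74% in either direction and 1.63% lower): Wnt9b fell by 1.36 ± 0.24 (adjusted p = 0.016) and Gata5 by 0.97 ± 0.21 (adjusted p = 0.0324). In WT hearts 3 of 8 members were called, all lower at E14.5 (background 4.04% in either direction and 1.96% lower): Gata5 fell by 1.11 ± 0.21 (adjusted p = 0.0243), Plvap by 0.73 ± 0.14 (adjusted p = 0.0257) and Cgnl1 by 0.40 ± 0.11 (adjusted p = 0.0496). Gata5 averaged 7.14 ± 1.72 CPM at E14.5 and 14.0 ± 1.57 CPM at E13.5 in KO hearts, and 6.60 ± 1.73 CPM at E14.5 and 14.2 ± 2.40 CPM at E13.5 in WT hearts (SD, n = 3 each). Hapln1 had the largest fall of mean level among uncalled members, at -1.48 ± 0.38 in KO hearts (adjusted p = 0.0655) and -1.27 ± 0.38 in WT hearts (adjusted p = 0.0904). Cytl1 pointed the other way, at 0.59 ± 0.38 in KO hearts (adjusted p = 0.43) and 0.91 ± 0.36 in WT hearts (adjusted p = 0.169), neither called. In KO hearts the 2 stages did not overlap for 5 of 8 members (background 24.9%), and in WT hearts for 6 of 8 (background 29.5%).

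These stage calls rest on few hearts. Without litter 3, Gata5 in WT was at -0.91 (adjusted p = 0.0812) and Cgnl1 at -0.27 (adjusted p = 0.125). With litter as a block, which sets litter 2 against litter 1, Cgnl1 in WT (-0.33, adjusted p = 0.0824) and Gata5 in KO (-0.83, adjusted p = 0.0661) were not called, while Plvap (-0.29, adjusted p = 0.0389) and Hapln1 (-1.22, adjusted p = 0.0491) in KO were. With E13.5 KO replicate 7 left out, Wnt9b in KO was no longer called (adjusted p = 0.0709). Over the 12 fits with a heart left out, the stage call in WT was kept in 9 for Gata5, 8 for Plvap and 2 for Cgnl1, and the call in KO was kept in 7 for Gata5. Coronary and capillary genes went the other way over this interval, with 7 of 15 called higher in KO (median 0.71) and 5 of 15 in WT (median 0.40), and none lower.

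**Figure D4:**
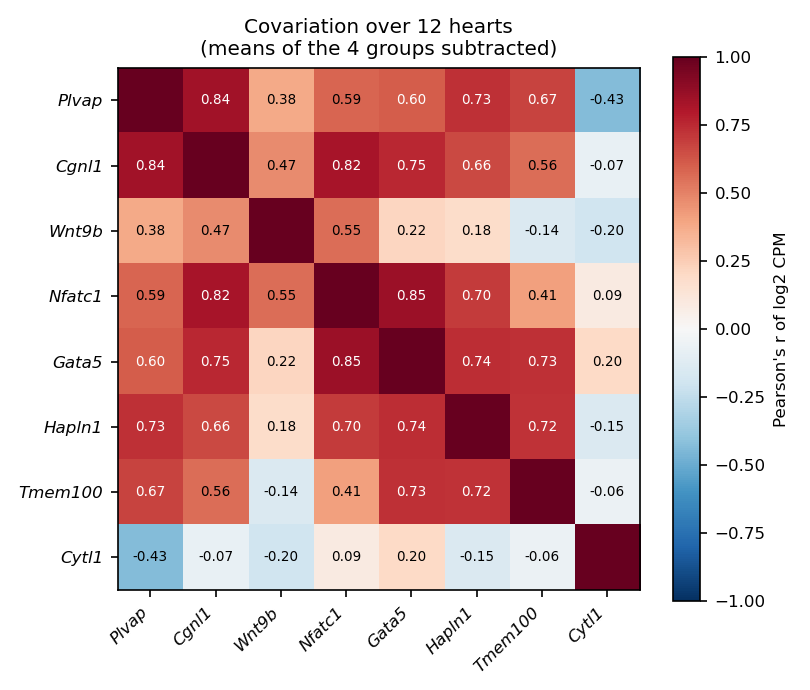
Pearson's r between the log2 CPM of each pair of the 8 genes over 12 hearts after the mean of each of the 4 groups was subtracted; red is positive, blue negative. Nfatc1 with Gata5 (0.85) and Plvap with Cgnl1 (0.84) are the highest pairs, while the row of Cytl1 lies between -0.43 and 0.20.

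Hearts of the same group also differed from one another, and the members did so together to different degrees. With group means subtracted, Pearson's r over the 12 hearts was 0.85 for Nfatc1 with Gata5 (Spearman's rho 0.80) and 0.84 for Plvap with Cgnl1 (rho 0.77). Without the pair of hearts farthest from the median of the first gene, r was 0.66 and 0.70. All 15 pairs among the 6 members other than Cytl1 and Wnt9b had a positive r, from 0.41 (Nfatc1 with Tmem100) to 0.85. Cytl1 had r between -0.43 (Plvap) and 0.20 (Gata5) with the other members, and its r with Wnt9b was -0.20. Both genes of a pair share the library, its depth and its cell make-up, and litter 3 lies at the edge for most members, so these values are descriptions.

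The genes most like the called members were sought among 12704 genes by Pearson's r of log2 CPM over 12 hearts with stage means subtracted, which keeps the KO difference. Lrrn2 (0.98), Ercc4 (0.96) and Rtn4rl1 (0.96) were most like Cytl1. Arid5a (0.94), Pi16 (0.94) and Homer3 (0.93) were most like Wnt9b.

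Genomic neighbours of the members were also measured. Of the 19 tested genes within 50 kb of a member, Bst2 alone was called over both stages, singled out here after its values were seen. Bst2 encodes tetherin, an interferon-induced membrane protein, and lies on chromosome 8 from 71534255 to 71537456, 22.5 kb from Plvap. It rose by 1.36 ± 0.17 (adjusted p = 0.00446). Neither Gosr2 beside Wnt9b (0.06, adjusted p = 0.527) nor Stk32b beside Cytl1 (-0.16, adjusted p = 0.774) nor the versican gene Vcan beside Hapln1 (0.01, adjusted p = 0.978) was called.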

How the data were processed

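RNA of 12 whole mouse hearts was sequenced from NEBNext Ultra libraries, per the labels' protocols. The authors deposited raw counts by gene symbol, not normalized. The tools STAR 2.5.3a, featureCounts, DESeq2 and DESeq and the build GRCm38 appear without roles, per the submitters' processing notes. Neither the count settings nor the annotation release is given in the sources used here. Of 45664 rows, 27 held date-like symbols and were kept, and no member or listed gene was read from them.

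The main test was the quasi-likelihood F-test of edgeR 4.0.16 (R 4.3.3), two-sided, with TMM scaling, robust shrinkage and 4 group means over the 12 libraries. After filterByExpr, 20691 genes remained, with 8 residual degrees of freedom and a biological coefficient of variation of 17.1%. Benjamini-Hochberg adjustment ran over those genes within each comparison, and calls are at 0.05. The SE of a log2 fold change is its size divided by the square root of F. P-values set a difference against the spread between embryos of a group. All E13.5 hearts are of litter 1, so p-values of the stage change do not separate stage from litter. For log2 CPM of lists and correlations a prior count of 2 was used. CPM per kb used the union of GENCODE M21 exons, and promoter windows came from RefSeq (5 of 8 members matched). In counts simulated for the comparison over both stages, on 20472 genes, 74 of 99 genes changed by a log2 fold of 1 and 93 of 95 changed by 2 were recovered, with 6 false calls.

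Members, lists and tests were chosen with earlier results of these data known. Named genes were all members, Ino80, a fixed panel (Npr3, Emcn, Pecam1, Cdh5, Tek, Nrg1), at most 4 called genes per list by smallest p, and the 3 genes most like each called member. Libraries within a group were not copies of each other (chi-square per degree of freedom 18.4 to 152). Litter pairing comes from the labels. At E14.5 the mean correlation of residuals between KO and WT hearts was 0.00399 within litters and -0.00501 between litters. Group means were subtracted first, so these 2 values nearly offset each other by construction and cannot tell whether litter mattered. Alternatives were DESeq2 1.42.0, RLE scaling, no filter on low counts, a fit of only the groups compared, a litter block, a covariate (Y-linked or pan-endothelial level), each heart left out, litter 3 left out, and the KO hearts lowest in macrophage genes left out. Embryo sex was not among the labels used here. The 4 Y-linked genes had a median log2 fold change in KO over WT of 1.03 at E13.5 (4 of 4 above 0) and 0.03 at E14.5 (2 of 4), with none called. Robust shrinkage was set to match earlier work on these data, and a fit without it was added after seeing the data. As another base for relative levels, 4 core vascular genes were used. On this base Wnt9b was 1.69 higher in KO hearts at E13.5 and 0.75 higher at E14.5, and Cytl1 differed by -1.53 and -2.29, all without overlap. Plvap at E13.5 was 0.36 higher. The small E14.5 differences of Hapln1 (-0.08), Gata5 (-0.07) and Tmem100 (-0.06) changed sign.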

Additional observations from a re-analysis of the deposited data

How the results depend on the processing

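Wnt9b and Cytl1 over both stages kept direction and call under the 21 other settings that give a value for them. Of 464 member results under settings other than leaving out 1 heart, 414 kept direction and side of the threshold, 16 lost a call, 22 gained one and 12 changed sign; of 576 with 1 heart left out, these were 510, 28, 9 and 29. No sign change touched a call, and the cause of these shifts was not tested.

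Members called moved as follows. At E13.5 (1 called) there were 3 with only the libraries compared, 2 without litter 3, 2 with DESeq2 and 0 with the pan-endothelial covariate. At E14.5 (0 called) there were 2 with litter as a block, 1 without litter 3 and 3 with DESeq2. For the stage change, WT had 1 without litter 3 and 0 without E14.5 WT replicate 7.2 (3 called), and KO had 0 with the pan-endothelial covariate, 0 without E13.5 KO 5 together with E14.5 KO 2, and 4 with DESeq2 (2 called). With 1 heart left out, counts ran from 2 to 3 over both stages, 0 to 2 at E13.5, 0 to 1 at E14.5, 0 to 0 for the interaction, 0 to 4 for the stage change in WT and 0 to 3 in KO. The block by litter changed no call of a member other than those given above.

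Log2 fold changes that changed sign were these. Over both stages, Cdh5 was 0.0061 with the Y-linked covariate and 0.021 with the pan-endothelial one, and without litter 3 Nfatc1 was -0.077 and Gata5 -0.034. At E13.5, Gata5 was 0.022 with the Y-linked and 0.0045 with the pan-endothelial covariate, and Tmem100 was -0.066 with the pan-endothelial covariate and -0.049 without KO 5 and E14.5 KO 2. At E14.5, Gata5 was -0.049 without litter 3. For the interaction, Hapln1 was 0.26 with the pan-endothelial covariate, Gata5 -0.029 without litter 3 and Cytl1 0.24 without E13.5 KO 5 and E14.5 KO 2. For the stage change in KO, Nfatc1 was 0.072 with the block and 0.095 without E13.5 KO 5 and E14.5 KO 2. Without E14.5 WT replicate 7.2, Nfatc1 was -0.073, Gata5 -0.058 and Tek -0.0078 over both stages, Hapln1 -0.079 and Gata5 -0.087 at E14.5, and Tmem100 -0.045 and Gata5 -0.057 for the interaction.

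With 1 of the other 11 hearts left out, values over both stages ran from -0.046 to 0.021 for Cdh5, -0.033 to 0.077 for Nfatc1, -0.060 to 0.12 for Gata5 and -0.016 to 0.095 for Tek. They ran from -0.13 to 0.11 for Gata5 and -0.050 to 0.28 for Tmem100 at E13.5, and from -0.090 to 0.26 for Gata5, -0.35 to 0.49 for Hapln1 and -0.055 to 0.37 for Tmem100 at E14.5. For the interaction they ran from -0.15 to 0.27 for Tmem100, -0.72 to 0.10 for Hapln1, -0.060 to 0.29 for Gata5 and -0.57 to 0.058 for Cytl1. For the stage change they ran from -0.055 to 0.25 for Tmem100 in WT, and in KO from -0.13 to 0.084 for Nfatc1 and -0.084 to 0.34 for Tmem100.

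Over all tested genes, DESeq2 called 933 over both stages (293 by edgeR), 306 at E13.5 (22), 337 at E14.5 (46), 2129 for the stage change in WT (836) and 1832 in KO (774). With litter as a block edgeR called 60 at E13.5, 92 at E14.5, 299 in WT and 332 in KO. Without E13.5 KO 5 and E14.5 KO 2 it called 63 over both stages, 10 at E14.5, 474 in WT and 130 in KO. Without litter 3 it called 71 at E13.5 and 95 in WT. With only the libraries compared it called 95 at E13.5, 2 at E14.5 and 289 in KO. With the pan-endothelial covariate it called 1 at E13.5 and 0 in KO, and with the Y-linked one 9 at E13.5 and 396 in KO. With no low-count filter it called 40 at E13.5 and 77 at E14.5. With 1 heart left out, counts ran from 125 to 483, 2 to 69, 10 to 107, 8 to 1081 and 66 to 1076 in the same order of comparisons. Comparing only the libraries of interest gives no separate value over both stages or for the interaction. Depth gave Cytl1 and Wnt9b, the members with the lowest counts, at least 52 and 72 counts per heart, and groups of 3 hearts limit the precision.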
